A study of Mus musculus with 18 samples.

Results

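The ER chaperones described here are 10 of the 55469 genes in each deposited table of normalised counts, chosen by symbol: Hspa5, Hsp90b1, Hyou1, Dnajb9, Dnajb11, Dnajc3, Calr, Canx, Sdf2l1 and Creld2. All 10 had a row in each of the 4 tables, and all 10 passed the filter on low values in every comparison, with 287 to 14950 reads per gene and library. RNA sequencing covered the ventral and lateral prostate lobes of male C56NL/6N mice, with 3 libraries in each of 6 groups. The groups were wild-type mice (WT), mice with a prostate-specific deletion of Elac2 exon 8 (KO) and mice homozygous for the A537T substitution of ELAC2 in the whole body (A537T), each at 10 and 30 weeks of age. Elac2 encodes an endonuclease that trims the 3′ end of precursor transfer RNAs in the nucleus and in mitochondria. The WT mice were matched to the mutants by age and litter. Recombination in the KO is driven by Cre under the probasin promoter, which is active in prostate epithelium, so that stroma, muscle and other cells are not targeted, whereas the A537T change is present in every cell.

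The endoplasmic reticulum (ER) is where secreted and membrane proteins are folded. Its lumenal chaperones hold nascent chains, and their genes are induced together when unfolded protein accumulates, through the sensors IRE1, PERK and ATF6. The prostate and the adjacent seminal vesicle are exocrine glands that release large amounts of a few secretory proteins, so ER chaperones are abundant there. Hspa5 (BiP, the ER HSP70) binds unfolded chains and keeps the sensors inactive. Hyou1 (GRP170) is its nucleotide exchange factor, and Dnajb9 (ERdj4), Dnajb11 (ERdj3) and Dnajc3 (P58IPK) are its J-domain partners. Sdf2l1 works with Dnajb11. Hsp90b1 (GRP94) is the ER HSP90. Calr and Canx are the lectin chaperones that hold glycoproteins. Creld2 is an ER protein with thioredoxin-like activity that responds to ER stress.

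The genes lie on 9 chromosomes of GRCm38. In the GENCODE annotation Hspa5 spans chr2:34771970-34777547 on the forward strand and Hsp90b1 spans chr10:86690209-86705509 on the reverse strand. Hyou1 spans chr9:44379490-44392369 and Dnajc3 chr14:118937976-118981697, both forward. Dnajb11 lies at chr16:22857845-22879634, forward, and Sdf2l1 at chr16:17130138-17132383, reverse. Dnajb9 lies at chr12:44205559-44210326, Calr at chr8:84841850-84846934 and Canx at chr11:50293961-50325673, all 3 reverse. Creld2 lies at chr15:88819646-88826683, forward. Hsp90b1, Dnajb9 and Dnajb11 overlap other annotated genes (1810014B01Rik, Gm15344 and Gm25745; Mir5627; Gm30505), so reads in the shared stretches are uncertain where both genes are on the same strand.

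The promoters are shown because the members moved together across libraries and because many ER chaperone genes carry the ER stress element, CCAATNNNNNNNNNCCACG, to which NF-Y and ATF6 bind. RefSeq promoters of GRCm38.p6, from 250 bases before to 50 bases after the annotated start, were found for 9 of the 10 members (not Hyou1) and searched on both strands. Positions are counted from the RefSeq start, which can differ from the GENCODE start, as it does for Hspa5, whose element lies inside the GENCODE span given above. The element was present in 6 of these 9 promoters and in 39 of 32851 promoters in all (0.119%). It lay 65 to 47 bases before the start of Hspa5, 105 to 87 before Dnajc3, 145 to 127 before Canx, 162 to 144 before Calr, 126 to 108 before Creld2, and at both 212 to 194 and 107 to 89 bases before Hsp90b1. A related form, ER stress element II (ATTGG and CCACG with any 1 base between them), was present in 12 of all promoters (0.0365%) and in 1 member, Dnajb11, where it lay 7 to 17 bases after the start. The unfolded protein response element TGACGTGG was in 222 promoters (0.676%) and in none of the 9. The members' elements, 5′ to 3′ on the strand that carries the motif, with the fixed bases of the motif in capitals and 5 flanking bases on each side except for Dnajb11, read as follows.
Hspa5, chr2:34772020-34772048, forward: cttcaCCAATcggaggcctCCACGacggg
Hsp90b1 distal, chr10:86705633-86705661, reverse: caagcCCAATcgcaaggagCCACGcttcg
Hsp90b1 proximal, chr10:86705528-86705556, forward: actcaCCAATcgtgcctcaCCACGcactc
Calr, chr8:84847070-84847098, forward: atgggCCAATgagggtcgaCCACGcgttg
Canx, chr11:50325795-50325823, reverse: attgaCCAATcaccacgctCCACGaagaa
Dnajc3, chr14:118937822-118937850, forward: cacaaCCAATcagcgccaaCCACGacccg
Creld2, chr15:88819515-88819543, reverse: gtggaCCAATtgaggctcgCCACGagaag
Dnajb11, chr16:22857852-22857862, forward: ATTGGcCCACG

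Creld2 varied most between libraries, and the 250 bases before its start (chr15:88819396-88819645, forward strand) are given in full, with the fixed bases of its element, here on the opposite strand, in capitals. GC content was 66.0%.
Creld2 upstream: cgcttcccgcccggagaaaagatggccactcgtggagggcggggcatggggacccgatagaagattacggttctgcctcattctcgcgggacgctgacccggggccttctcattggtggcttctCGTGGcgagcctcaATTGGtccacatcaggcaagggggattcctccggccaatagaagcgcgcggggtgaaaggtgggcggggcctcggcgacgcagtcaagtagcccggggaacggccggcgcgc
These matches describe letters in the sequence, and no binding was measured. Sdf2l1 and Dnajb9 had none of the 3 motifs in this window.

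**Figure D1:**
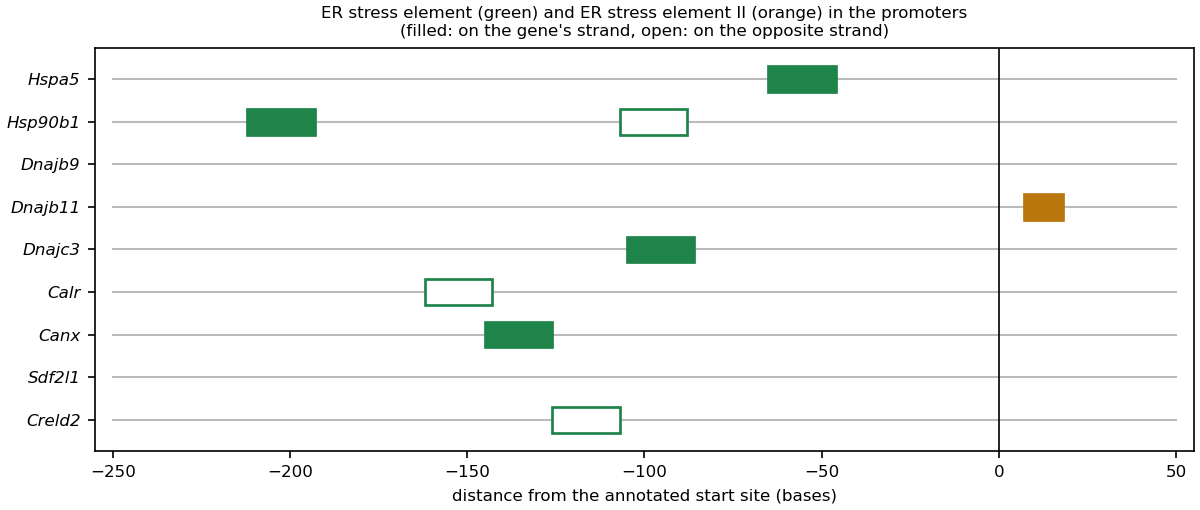
Positions of ER stress elements (bases relative to the annotated start, x axis) in the 9 RefSeq promoters of ER chaperone genes that were searched. Hsp90b1 has 2 elements, 5 other genes have 1 each within 162 bases before the start, and the element II of Dnajb11 lies after the start.

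The libraries held 6569642 to 11225281 reads (median 8586877), recovered from the normalised counts. Library labels in the tables (1AF to 18AF) were used as names, since they carry no replicate number. The targeted gene was low everywhere. Its group means were 13.9 to 19.5 RPM (a reads-per-million scale). Elac2 normalised counts were 124, 142 and 166 in WT and 119, 111 and 115 in KO at 10 weeks, and 149.6, 153 and 194 in WT and 98.4, 151 and 122 in KO at 30 weeks, so that the groups overlapped at 30 weeks alone. In A537T they were 173, 165 and 158 at 10 weeks and 121, 189 and 114 at 30 weeks. In KO its log2 fold change was -0.31 at 10 weeks and -0.43 at 30 weeks (limma, adjusted p = 0.325 and 0.478), a count over the whole gene that does not show loss of exon 8. Markers of luminal prostate epithelium were present in every library, with 0.111 to 0.216% of reads for 7 genes.

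Secretory load differed widely between libraries of the same label. Seminal vesicle genes (11 genes, led by Svs2, Svs5 and Pate4, which encode seminal vesicle secretory proteins) took 6.56 to 10.3% of reads in the 3 KO libraries at 10 weeks. In WT at 10 weeks they took 4.64% in 10AF, 1.77% in 11AF and 0.000847% in 12AF, and in A537T 0.201, 0.142 and 0.0399%. At 30 weeks they took at most 0.000854% in WT. Of the mutants at 30 weeks, 4 libraries had 6.33 to 9.18%, while KO 5AF had 0.000143% and A537T 8AF had 0.000171%. Seminal vesicle RNA was thus high in all KO libraries at 10 weeks and in 4 of 6 mutant libraries at 30 weeks, and nearly absent from WT at 30 weeks.

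Ventral and lateral lobe secretory genes (6 genes, led by Sbp, Spink1 and Pbsn) took 0.407 to 3.79% of reads in KO at 10 weeks, 3.62 to 13.3% in WT, 7.77 to 10.3% in A537T and 4.44 to 14.7% at 30 weeks. Tgm4 and 9530053A07Rik, which mark secretion of the anterior and dorsal lobes, took 3.38 to 5.89% in the 6 mutant libraries at 10 weeks but 5.27, 0.304 and 0.00065% in WT 10AF, 11AF and 12AF. At 30 weeks they took 0.00111% in WT 1AF and 4.33 to 5.93% in the other 2 WT libraries, 0.000935 to 2.61% in KO and 0.0549 to 0.312% in A537T. Skeletal muscle genes took 3.89 to 12.6% of reads in WT at 10 weeks, 0.0579 to 2.03% in KO, 1.53 to 4.34% in A537T and at most 0.0712% at 30 weeks. The shares of reads from these tissue markers therefore differed between groups as well as within them. In whole tissue, fewer cells of a type and less RNA per cell cannot be told apart.

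**Figure D2:**
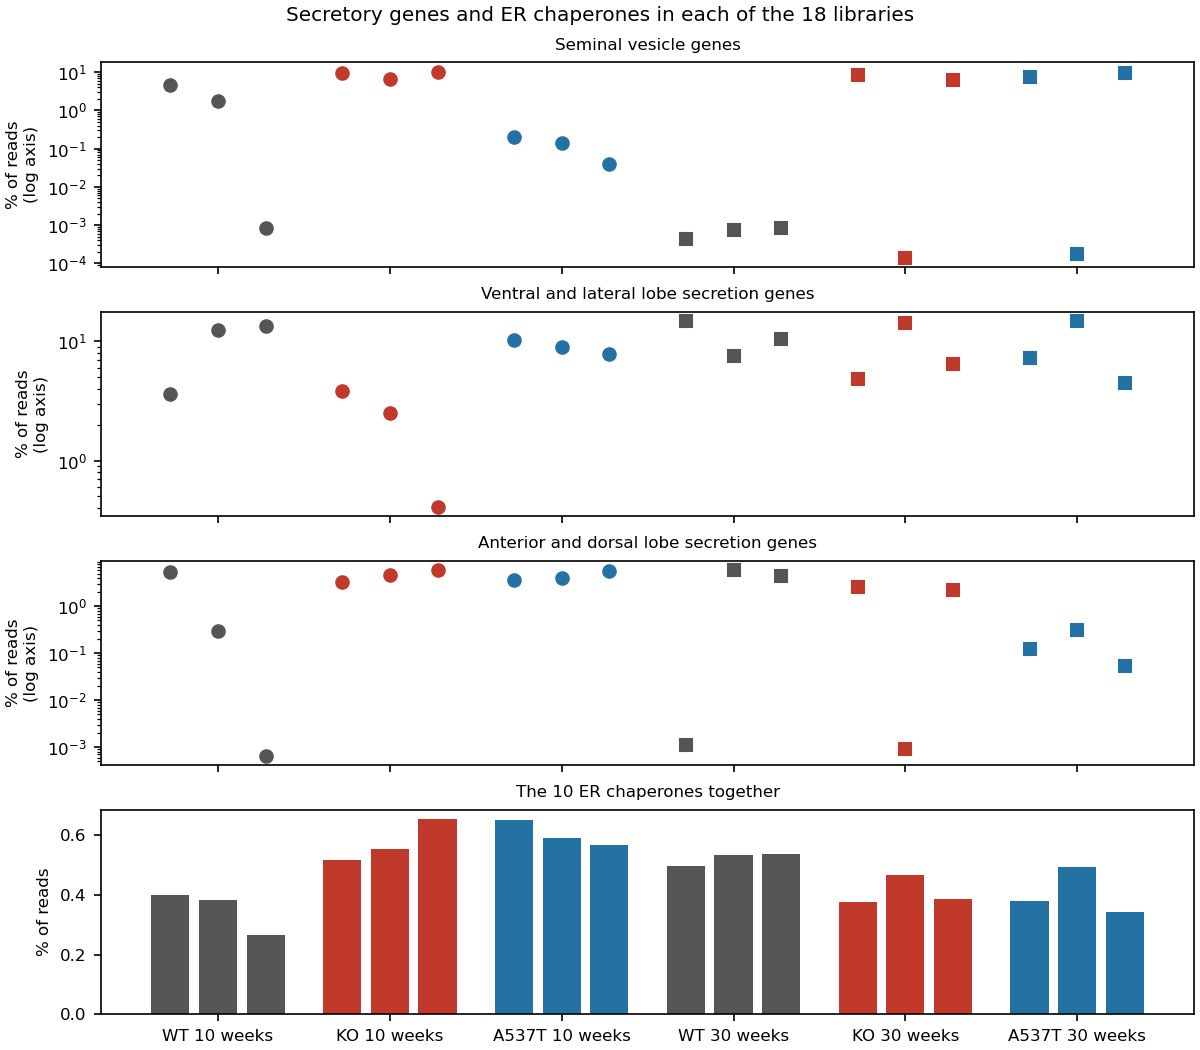
Share of reads (percent, log axis) taken by seminal vesicle, ventral and lateral lobe, and anterior and dorsal lobe secretory genes in each of the 18 libraries, by group. Seminal vesicle genes are above 1% in 9 libraries and anterior and dorsal lobe genes above 2% in 11, with wide gaps below.

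The 10 ER chaperones together took 0.264 to 0.654% of the reads of a library. They took 0.349% ± 0.0742 in WT at 10 weeks (SD, n = 3), 0.575% ± 0.0708 in KO and 0.604% ± 0.0423 in A537T. At 30 weeks the order of the groups was turned, with 0.523% ± 0.0225 in WT, 0.410% ± 0.0498 in KO and 0.405% ± 0.0776 in A537T. The highest WT library at 10 weeks (10AF) lay below every mutant library (0.517% and above), and the lowest WT library at 30 weeks (1AF, 0.497%) lay just above every mutant library (0.344 to 0.493%). The 2 mutant libraries at 30 weeks without seminal vesicle RNA, 5AF (0.468%) and 8AF (0.493%), were the highest of their groups and the closest to WT.

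Per kilobase of exon, the median level over the 18 libraries was highest for Calr (304 RPM per kb, 159 to 375), followed by Hspa5 (246) and Hsp90b1 (233). Canx (118) and Dnajc3 (98.8) came next, then Creld2 (66.3), Sdf2l1 (60.3) and Hyou1 (57.5). Dnajb9 (25.8) and Dnajb11 (23.1), both J-domain partners of Hspa5, were lowest. The ranges of neighbours in this order overlapped throughout.

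Creld2 had the widest range, from 39.6 RPM in WT 12AF to 241 RPM in KO 15AF, a 6.10-fold span. Hsp90b1 spanned 4.30-fold (409 to 1760.4 RPM) and Dnajb9 3.24-fold (28.3 to 91.6 RPM), and the other 7 genes 1.98- to 2.63-fold. WT 12AF was the lowest library for 9 of the 10 genes, the exception being Sdf2l1 (lowest in A537T 9AF), and was also the library with the highest skeletal muscle share and the least anterior and dorsal lobe RNA. The part of this tissue content in the low values was not tested.

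Levels in RPM placed WT below both mutants at 10 weeks and above both at 30 weeks for most members, while the order of KO and A537T varied. Hspa5 averaged 832 ± 120 in WT at 10 weeks, 1374 ± 195 in KO and 1641 ± 123 in A537T, against 1069.9 ± 78.8, 864 ± 108 and 933 ± 212 at 30 weeks. Hsp90b1 averaged 633 ± 235, 1404 ± 310 and 1275 ± 152 at 10 weeks, and 1082 ± 117, 811 ± 60.5 and 751 ± 152 at 30 weeks. Creld2 averaged 66.9 ± 29.0, 205 ± 38.9 and 195 ± 11.4 at 10 weeks, and 95.8 ± 24.0, 68.5 ± 2.58 and 57.9 ± 22.7 at 30 weeks (SD, n = 3 for each group). For all 3 the mutants were above WT at 10 weeks and below it at 30 weeks, although the mean ± SD ranges of WT and A537T overlapped at 30 weeks for Hspa5 and Creld2. Dnajb9 did not share this order, with 57.3 ± 4.05 RPM in WT at 30 weeks against 63.6 ± 17.1 in KO and 64.2 ± 6.82 in A537T.

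**Figure D3:**
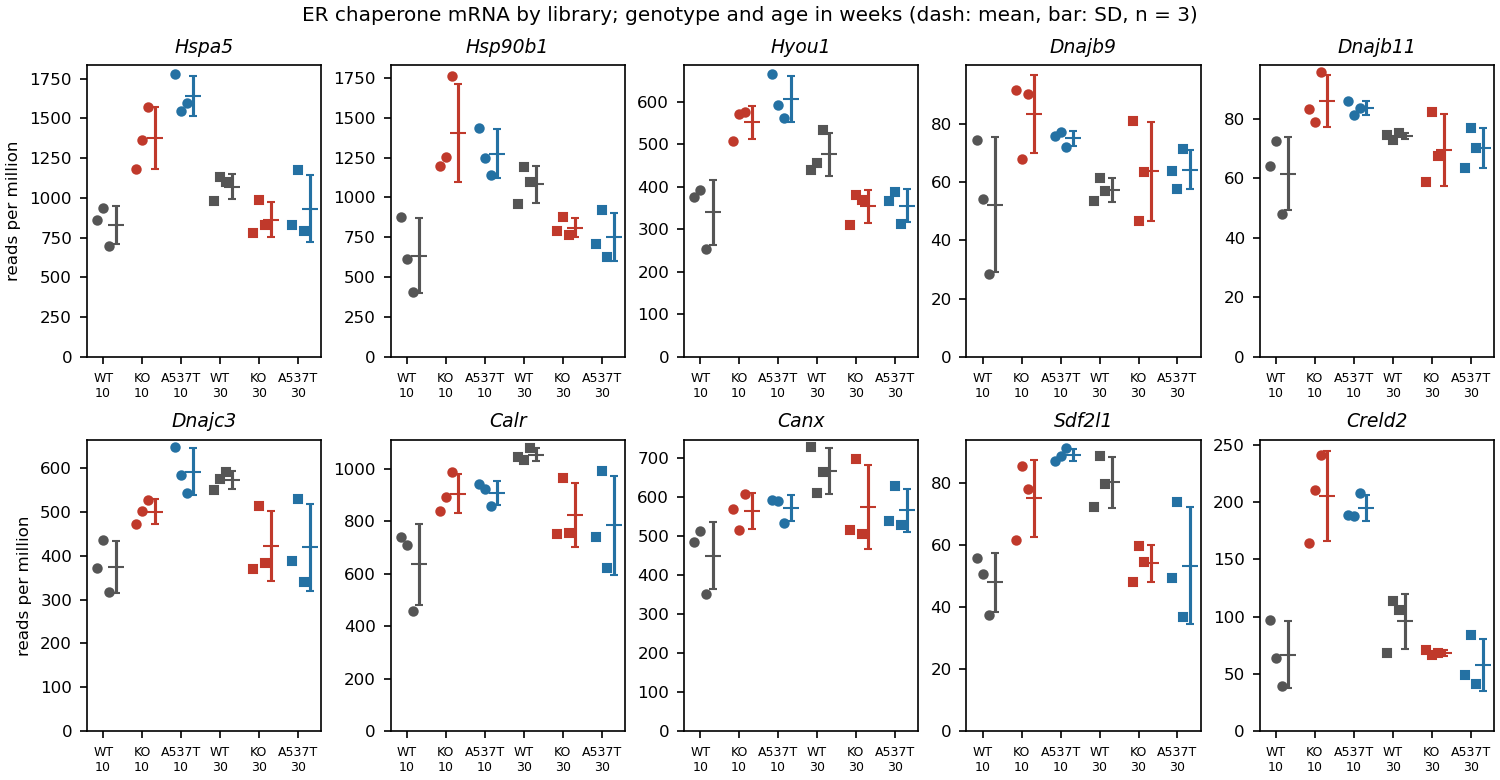
Level of each ER chaperone (RPM, linear axis) in the 18 libraries, by group. A dash marks the group mean and a bar the SD. At 10 weeks the WT libraries lie lowest for most genes and at 30 weeks highest, and Creld2 shows the widest spread.

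The comparison of KO with WT at 10 weeks asks how loss of Elac2 alters these genes in young adults. All 10 chaperones had a higher mean in KO, with a median log2 fold change of 0.47 against -0.01 for all 15089 genes tested, on the log2(normalised count + 1) scale used for all fold changes. In 7 of 10 the groups did not overlap, with KO higher, against 11.7% of all genes.

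Creld2 differed most. Its normalised counts were 781, 544 and 410.1 in WT 10AF, 11AF and 12AF and 1221, 1717 and 1813 in KO 13AF, 14AF and 15AF. Every KO library was above every WT library, and the log2 fold change was 1.48 ± 0.26 (SE; 95% confidence interval 0.85 to 2.11; limma, adjusted p = 0.183).

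Hsp90b1 had 7031, 5228 and 4235 normalised counts in WT and 8907, 10224 and 13221 in KO, a log2 fold change of 0.98 ± 0.25 (0.40 to 1.56; limma, adjusted p = 0.183). Hspa5 had 6899.7, 7966 and 7243 in WT and 8804, 11121 and 11815 in KO, a log2 fold change of 0.51 ± 0.18 (0.09 to 0.93; limma, adjusted p = 0.204). The groups were apart for both genes, with KO 13AF the closest to WT. Its exchange factor Hyou1 had 3017, 3347 and 2619.6 in WT and 3774, 4649 and 4326 in KO, a log2 fold change of 0.51 ± 0.15 (limma, adjusted p = 0.186).

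The J-domain partners and the lectin chaperones differed less. Dnajb9 was at 0.55 ± 0.26, with 1 WT library (10AF, 595) above a KO library (14AF, 554). Dnajb11 was at 0.28 ± 0.13, Dnajc3 at 0.21 ± 0.14, Calr at 0.33 ± 0.16 and Canx at 0.13 ± 0.13. Sdf2l1 was at 0.44 ± 0.18, with 447, 431 and 387 in WT and 457, 697 and 586 in KO, so that KO 13AF was only just above the highest WT library. Dnajc3, Canx and Dnajb9 overlapped between groups.

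None of the 10 passed limma's adjusted threshold of 0.05, and neither did any gene (0%). At an unadjusted p under 0.05 there were 5 members, all higher in KO (Creld2, Hsp90b1, Hyou1, Hspa5 and Sdf2l1), against 7.97% of all genes higher. DESeq2 on the recovered reads called 2 members, Creld2 (adjusted p = 0.000209) and Hsp90b1 (adjusted p = 0.00807), against 1.03% of genes called higher, and edgeR called 0 members and 0% of genes. Without WT library 10AF, limma called the same 2 members (Creld2 at a log2 fold change of 1.72). It then called 2886 of 15044 genes, so that 2 of 10 members was near the share of all genes. Without WT library 12AF the median over the members was 0.33. KO libraries also had more seminal vesicle RNA and less muscle RNA than any WT library. With the share of seminal vesicle genes as a covariate the median was 0.29, and with that of the anterior and dorsal lobe genes also 0.29. With the skeletal muscle share as a covariate the median was 0.50, with Creld2 at 1.45 and Dnajb9 at 0.04, while the genes at an unadjusted p under 0.05 fell from 2930 to 299 (158 higher and 141 lower). Scaling to the same total moved the median of all genes by 0.21 and that of the members to 0.69, and turned the split of genes at an unadjusted p under 0.05 from 1202 higher and 1728 lower to 1921 higher and 1052 lower.

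The comparison of A537T with WT at 10 weeks asks the same of the substitution. It used the same WT libraries, so the 2 comparisons at an age are not independent. All 10 chaperones again had a higher mean in the mutant, with a median log2 fold change of 0.65 against 0.01 for all 15131 genes tested, and in 8 the groups did not overlap, against 5.58% of all genes in that direction.

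Creld2 had 814, 557 and 422 normalised counts in WT and 1685, 1629.8 and 1633 in A537T 16AF, 17AF and 18AF. The A537T libraries were close to each other and all above WT, and the log2 fold change was 1.52 ± 0.23 (0.97 to 2.06; limma, adjusted p = 0.746). Hspa5 had 7362, 8343 and 7616 in WT and 15906, 13388 and 12552 in A537T, a log2 fold change of 0.84 ± 0.18 (limma, adjusted p = 0.746). Sdf2l1 had 462, 437 and 393 in WT and 779, 769.7 and 715 in A537T, a log2 fold change of 0.81 ± 0.13 (0.52 to 1.10). No WT library reached the lowest A537T library for these 3 genes.

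Hsp90b1 had 7744, 5653 and 4597 in WT and 12846, 10827 and 8931 in A537T, a log2 fold change of 0.88 ± 0.25. Hyou1 was at 0.77 ± 0.17, with 3074, 3348 and 2630.0 in WT and 5944, 5137 and 4412 in A537T. Dnajc3, which also restrains the kinase PERK, was at 0.52 ± 0.17, with 3167, 3870.2 and 3434 in WT and 5789, 5061 and 4250.3 in A537T. These 3 were apart between groups too. Calr was at 0.44 ± 0.18 and Dnajb11 at 0.34 ± 0.14, both apart, while Dnajb9 (0.48 ± 0.26) and Canx (0.27 ± 0.16) overlapped.

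No member passed limma's adjusted threshold (adjusted p = 0.746 to 0.755), nor did any gene (0%). At an unadjusted p under 0.05 there were 8 members, against 2.76% of all genes higher. DESeq2 on the recovered reads called 4 (Creld2, Hspa5, Sdf2l1 and Hyou1, adjusted p = 0.0001, 0.00131, 0.00254 and 0.0249), against 0.207% of genes called higher, and edgeR called 0 members and 0% of genes. Without WT library 10AF limma called Creld2 alone among the members (log2 fold change 1.76, adjusted p = 0.0171), with 50 of 15029 genes called. Seminal vesicle RNA was at most 0.201% in the 3 A537T libraries, lower than in 2 of the 3 WT libraries, and the median was 0.67 with its share as a covariate. Anterior and dorsal lobe RNA was 3.71% or more in all 3, against at most 0.304% in 2 of the 3 WT libraries, and muscle RNA overlapped between the groups. With the anterior and dorsal lobe share as a covariate the median was 0.57, and with the skeletal muscle share 0.74. The part of these tissues in the result was not tested further.

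At 30 weeks KO was compared with WT to ask whether the pattern lasts into older adults. Of the 10 chaperones, 9 had a lower mean in KO, with a median log2 fold change of -0.38 against -0.01 for all 14729 genes tested. In 6 the groups did not overlap, with KO lower, against 8.41% of all genes.

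Sdf2l1 had 641, 829 and 701 normalised counts in WT 1AF, 2AF and 3AF and 456, 492 and 516 in KO 4AF, 5AF and 6AF, a log2 fold change of -0.56 ± 0.12 (-0.86 to -0.27; limma, adjusted p = 0.344). Dnajc3 had 4878, 5383 and 5193 in WT and 3521, 4236 and 3619.6 in KO, a log2 fold change of -0.45 ± 0.11 (-0.71 to -0.18; limma, adjusted p = 0.386). Hyou1 had 3895, 4268 and 4704 in WT and 2955, 3148 and 3504 in KO, a log2 fold change of -0.42 ± 0.12. The WT and KO libraries were apart for all 3.

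Hsp90b1 had 8504, 11139 and 9656 in WT and 7506, 7249.6 and 7239 in KO (-0.41 ± 0.13). Calr had 9262, 9663 and 9514 in WT and 7147, 7939 and 7131 in KO (-0.36 ± 0.10). Hspa5 had 8706, 10571 and 9682 in WT and 7403, 8117 and 7849 in KO (-0.31 ± 0.12). These were apart as well, with KO 5AF, which lacks seminal vesicle RNA, the highest KO library for Calr and Hspa5.

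Creld2 was at -0.44 ± 0.21, with 607, 1059.8 and 932 in WT and 678, 545 and 647 in KO, so that WT 1AF lay within the KO range. Canx was at -0.22 ± 0.12 and Dnajb11 at -0.10 ± 0.11, and both overlapped. Dnajb9 was the exception in sign at 0.12 ± 0.24, with 474, 575 and 502 in WT and 769, 385 and 599 in KO. Its 2 KO libraries with seminal vesicle RNA lay above every WT library and the library without it, 5AF, lay below. Its sign was negative with the seminal vesicle share as a covariate (-0.31) and when 4AF was left out (-0.10).

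No member passed limma's adjusted threshold (adjusted p = 0.344 to 0.874), nor did any gene (0%). At an unadjusted p under 0.05 there were 6 members, the 6 whose groups were apart, against 5.41% of all genes lower. DESeq2 on the recovered reads called 2, Sdf2l1 (adjusted p = 0.0404) and Dnajc3 (adjusted p = 0.0464), against 0.557% of genes called lower, and edgeR called 0 members and 0% of genes. Without KO library 5AF limma called Dnajc3 and Calr (adjusted p = 0.0236 and 0.0461), with 944 of 14732 genes called in all. The median was -0.32 with the seminal vesicle share as a covariate and -0.35 with 5AF as the only KO library, and under quantile normalization it was -0.24.

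In A537T at 30 weeks 9 of 10 chaperones also had a lower mean than WT, with a median log2 fold change of -0.45 against -0.01 for all 14789 genes tested. In 7 the groups did not overlap, with A537T lower, against 9.4% of all genes.

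Hsp90b1 had 8528, 11160.3 and 9707 normalised counts in WT and 6215, 7772 and 5825 in A537T 7AF, 8AF and 9AF, a log2 fold change of -0.57 ± 0.16 (-0.94 to -0.21; limma, adjusted p = 0.272). Hyou1 had 3873, 4240.0 and 4688 in WT and 3209, 3279 and 2918 in A537T, a log2 fold change of -0.44 ± 0.11 (-0.70 to -0.18; limma, adjusted p = 0.257). Dnajc3 had 4895, 5397 and 5224 in WT and 3395, 4474 and 3173 in A537T (-0.51 ± 0.14). All 3 were apart between groups.

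Sdf2l1 had 638, 825 and 699.7 in WT and 434, 624 and 343 in A537T (-0.66 ± 0.22). Calr had 9195, 9582 and 9468 in WT and 6489.8, 8371 and 5809 in A537T (-0.47 ± 0.15). For both genes, and for Dnajc3 and Hsp90b1, A537T 8AF was the mutant library nearest to WT, and it was the only one of the 3 without seminal vesicle RNA.

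Creld2 had the lowest log2 fold change, -0.79 ± 0.29, but its groups overlapped, with 609, 1062 and 937 in WT and 432, 707 and 381 in A537T. Hspa5 was at -0.26 ± 0.16, with 8773, 10642 and 9781 in WT and 7255, 9946 and 7409.9 in A537T. A537T 8AF lay among the WT libraries for Hspa5 and above the lowest of them for Creld2. Canx (-0.24 ± 0.10) and Dnajb11 (-0.12 ± 0.10) were lower without overlap, and Dnajb9 (0.15 ± 0.14) overlapped.

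No member passed limma's adjusted threshold (adjusted p = 0.257 to 0.653), nor did any gene (0%). At an unadjusted p under 0.05 there were 7 members, all lower, against 6.28% of all genes. DESeq2 on the recovered reads called Hyou1 (adjusted p = 0.0271) and Hsp90b1 (adjusted p = 0.0318), against 0.853% of genes called lower, and edgeR called 0 members and 0% of genes. Without A537T library 8AF limma called 6 members, with 1224 of 14801 genes called in all. These 6 were Calr, Hsp90b1, Dnajc3, Sdf2l1, Creld2 and Hyou1, at log2 fold changes of -0.48 to -1.06. With 8AF as the only A537T library the median was -0.18 and Hspa5 was at 0.04, and with the seminal vesicle share as a covariate the median was -0.25. Plasma and B cell genes took 0.0235 to 0.105% of reads in A537T at 30 weeks and 0.00726 to 0.0117% in WT, with Jchain and the immunoglobulin genes present and Tnfrsf17 at or under 3 reads. Macrophage genes took 0.0128 to 0.0288% in A537T and 0.00791 to 0.00962% in WT, and all 6 had a higher mean in A537T. For 4 of them the groups did not overlap, against 1358 of all 14789 genes in that direction. For both lists 8AF had the highest share. The part of these cells in the result was not tested.

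**Figure D4:**
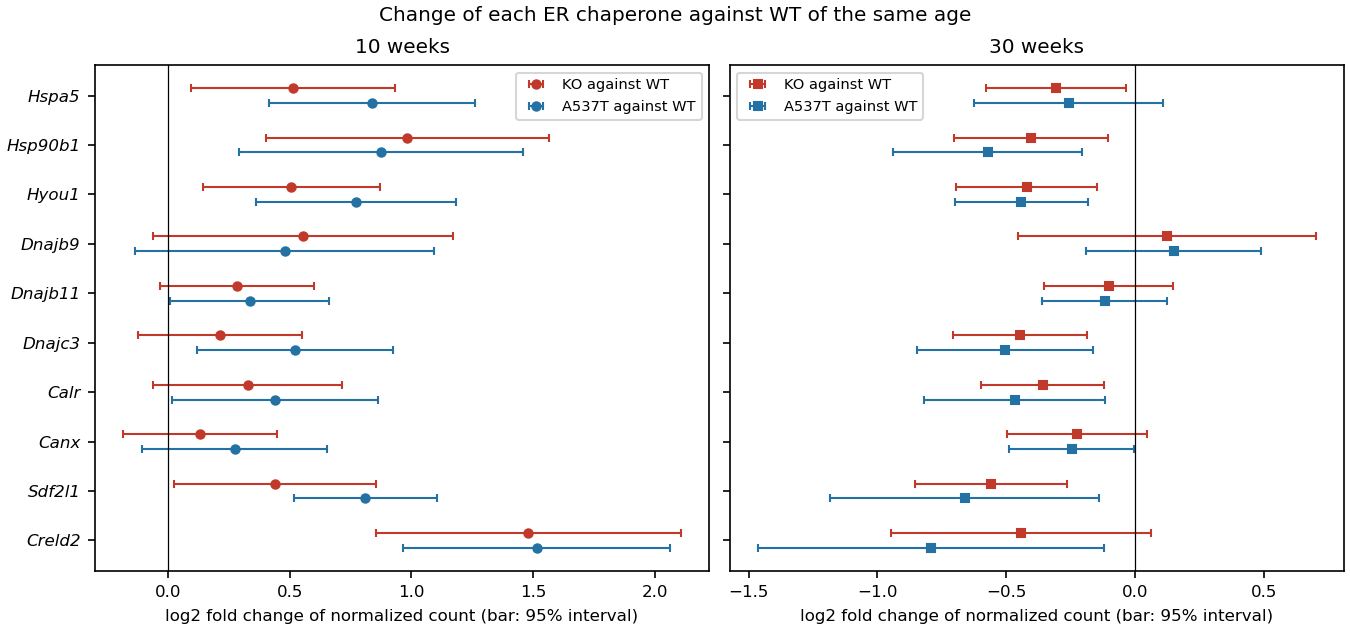
Log2 fold change against WT of each ER chaperone (points, with 95% confidence intervals from limma) in KO and A537T at 10 and 30 weeks. All 10 are above 0 at 10 weeks in both lines, and 9 are below 0 at 30 weeks, the exception being Dnajb9.

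The turn between ages was tested as the change against WT at 30 weeks minus the change at 10 weeks, with an exact permutation test that exchanged genotypes among the libraries of an age (2-sided, 400 arrangements, smallest possible p 0.005). The test is exact for no genotype difference at either age, and not for an equal change at both ages. In KO 9 of 10 members had an unadjusted p under 0.05, against 4.01% of 14295 genes that were lower at 30 weeks at this threshold, and in A537T 9 of 10, against 5.23% of 14292 genes. Creld2 differed by -1.92 in KO (exact permutation p = 0.015) and by -2.31 in A537T (exact permutation p = 0.01). Hsp90b1 differed by -1.39 in KO and -1.45 in A537T, and Sdf2l1 by -1.001 and -1.47 (exact permutation p = 0.005 for each).

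Dnajb9 was the member without such a difference, at -0.43 in KO and -0.33 in A537T (exact permutation p = 0.405 and 0.465). The limma interval of its difference, -1.28 to 0.42 in KO and -1.03 to 0.37 in A537T, included the differences of some other members, such as Calr. Adjusted over all genes, none of the exact permutation p-values passed (adjusted p at least 0.357 in KO and 0.308 in A537T). A limma contrast over the 12 libraries of a line, added after these values were seen, called 0 members and 0% of genes, with adjusted p = 0.233 to 0.702 in KO and 0.1496 to 0.716 in A537T. Its smallest unadjusted p was 6.18e-05, for Hyou1 in A537T. The 2 lines share WT libraries and the members vary together, so 9 of 10 in each line are not independent counts.

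Secretory load was then set against each chaperone library by library. Libraries fell into separate clusters of seminal vesicle share (between 0.000854 and 0.0399%, and between 0.201 and 1.77%, there was no library) and of anterior and dorsal lobe share, so relations were computed on deviations from the means of the 6 groups, with exact permutation within groups over 18 libraries. There were 60 relations in all, and those to the anterior and dorsal lobe share were added after the data were seen.

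Dnajb9 correlated with the seminal vesicle share within groups. Its deviations correlated with those of the log2 share at r = 0.74 (exact permutation p = 0.000171, adjusted over all genes 0.0341) and rho = 0.75 (exact permutation p = 0.000793). With the deviations of 5AF and 8AF, the libraries farthest from the median, dropped, r was 0.79. The group means still included the dropped libraries, here and for the other relations within groups, so such an r is not free of them. In RPM it was at 80.8 and 63.3 in KO 4AF and 6AF against 46.7 in 5AF at 30 weeks, at 63.8 and 71.3 in A537T 7AF and 9AF against 57.6 in 8AF, and at 74.2 and 54.2 in WT 10AF and 11AF against 28.3 in 12AF at 10 weeks. In each of these groups the library without seminal vesicle RNA was the lowest. Of all 15125 genes, 10.6% had a positive relation at an unadjusted p under 0.05 and 1.59% passed the adjustment. Among the 9 libraries with at least 1% of seminal vesicle reads, r was 0.76 and rho 0.77 (exact permutation p = 0.00873 and 0.0214), and r was 0.86 without 10AF and 11AF. Canx had the highest rank correlation in these 9 libraries, with rho = 0.90 (exact permutation p = 0.00203), r = 0.54 (exact permutation p = 0.148) and r = 0.78 without 10AF and 11AF. The p-values over these 9 libraries were not adjusted over all genes.

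The other 9 members had r from -0.51 (Dnajc3) to 0.08 (Hyou1) with the seminal vesicle share within groups, and none passed. Dnajc3, Hspa5 and Sdf2l1 had the most negative values (-0.51, -0.40 and -0.34). With the deviations of 5AF and 8AF dropped these were 0.04, 0.11 and 0.12. Because the group means still included these 2 libraries, this cannot show what the negative sign rested on.

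Creld2 correlated with the anterior and dorsal lobe share within groups, with r = 0.71 (exact permutation p = 4.29e-05, adjusted over all genes 0.0166) and rho = 0.85 (exact permutation p = 4.29e-05). With the deviations of 1AF and 5AF dropped, but the group means unchanged, r was 0.76. In WT at 10 weeks it was at 97.4, 63.8 and 39.6 RPM in 10AF, 11AF and 12AF, in the order of their shares, and in WT at 30 weeks at 113 and 106 in 2AF and 3AF against 68.4 in 1AF. In 5 of the 6 groups the order of the libraries in Creld2 was that of their shares, A537T at 10 weeks being the exception (189, 188 and 208 RPM for shares of 3.71, 4.11 and 5.6%). In KO at 30 weeks the values were close, with 71.2, 66.1 and 68.3 in 4AF, 5AF and 6AF. Of all genes, 10.6% had a positive relation at an unadjusted p under 0.05 and 0.476% passed. Among the 11 libraries with at least 2% of such reads r was 0.60 and rho 0.53 (permutation p = 0.0548 and 0.0991), and -0.06 without 4AF and 6AF, so the relation did not hold there.

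Across all groups A537T at 30 weeks had the least Creld2 and the smallest anterior and dorsal lobe shares apart from single libraries, and the mutants at 10 weeks had the most Creld2 with shares of 3.38% or more. The group difference and the share cannot be told apart at 10 weeks. WT 10AF had a share of 5.27%, and its Creld2 (97.4 RPM) was below every mutant library at that age (164 RPM and above). A single library cannot separate genotype from lobe content, and this was not tested. Dnajb9 had r = 0.73 with this share (exact permutation p = 0.0161, adjusted over all genes 0.232) and Hsp90b1 r = 0.51 (exact permutation p = 0.0752), and neither passed. The seminal vesicle share ran in the order of the anterior and dorsal lobe share in WT at 10 weeks and in KO at 30 weeks. In A537T it ran in the opposite order at both ages. Whether Dnajb9 or Creld2 goes with either share apart from the other was not tested.

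The ventral and lateral lobe share stands for the secretion of the lobes that were sampled. Within groups r ran from -0.58 (Dnajb9, exact permutation p = 0.0568) to 0.30 (Dnajc3), and no member passed the adjustment over all genes, while 13.3% of all genes had a positive relation at an unadjusted p under 0.05 and 11.2% passed. Over all 18 libraries Dnajb9 was lower where this share was higher, with r = -0.61 and rho = -0.74 (permutation p = 0.0226 and 0.00069, not adjusted over all genes) and r = -0.69 without 14AF and 15AF. The highest r over all libraries was 0.09 (Dnajc3).

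**Figure D5:**
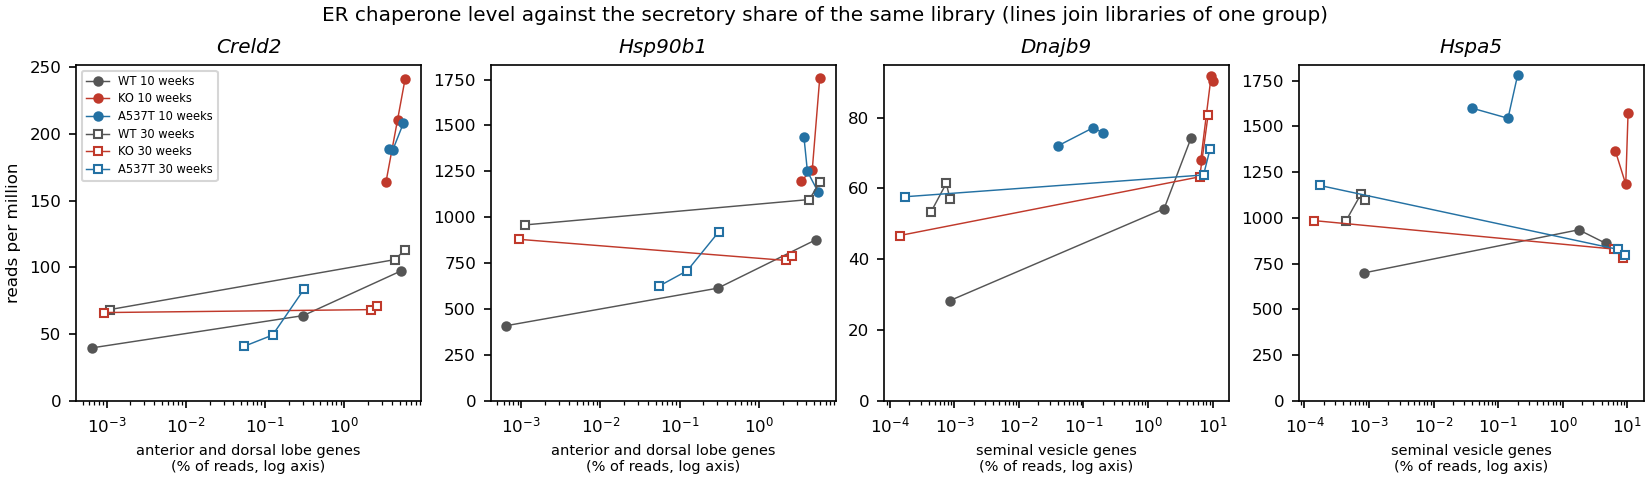
Level (RPM) of Creld2 and Hsp90b1 against the anterior and dorsal lobe share, and of Dnajb9 and Hspa5 against the seminal vesicle share. Shares are percent of reads on a log axis. Each point is a library, and lines join the libraries of a group. Correlations of the log2 deviations from group means, which are not drawn, are 0.74 (Dnajb9) and 0.71 (Creld2) over the 18 libraries.

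The members varied together. Over the 45 pairs the median correlation of log2 RPM across the 18 libraries was 0.76 (0.26 to 0.94), and 38 pairs were over 0.5. Within groups the median was 0.74 (-0.07 to 0.92). Dnajb9 was the least alike, with a median of 0.49 to the other members and 0.24 within groups. These libraries share depth and tissue content, and the correlations are descriptions.

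The 5 genes most like the mean of the 10 members, of 2774 genes with at least 50 RPM, were Pdia4 (r = 0.963), Manf (0.960), Sel1l (0.946), Prrc1 (0.940) and Eif4g2 (0.931), over the 18 libraries. Pdia4 is a disulfide isomerase of the ER, Manf a secreted ER stress-responsive factor, and Sel1l the adaptor of the HRD1 complex in ER-associated degradation. Prrc1 acts in trafficking from the ER, and Eif4g2 is a translation initiation factor.

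Other ER genes were counted from fixed lists, and in none did a gene pass limma's adjusted threshold. Of 16 disulfide isomerases and folding enzymes, 4 were higher without overlap in KO at 10 weeks and 4 in A537T, with median log2 fold changes of 0.26 and 0.20, against 11.7 and 5.58% of all genes without overlap. At 30 weeks 11 and 8 of them were lower without overlap, with medians of -0.33 and -0.38, against 8.41 and 9.4% of all genes. At an unadjusted p under 0.05 there were 4 and 3 higher at 10 weeks and 9 and 8 lower at 30 weeks, against 7.97 and 2.76% of all genes higher and 5.41 and 6.28% lower. They thus had the signs of the chaperones, with smaller medians.

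Of 11 genes of ER-associated degradation, which removes misfolded proteins, 4 were higher without overlap at 10 weeks in each line and 7 (KO) and 2 (A537T) lower at 30 weeks, with medians of 0.01, 0.13, -0.36 and -0.28. The shares of all genes without overlap were 11.7 and 5.58% at 10 weeks and 8.41 and 9.4% at 30 weeks, so that 2 of 11 in A537T was near that background. The 9 sensors and transcription factors of the unfolded protein response had medians of 0.24, 0.13, 0.11 and 0.07, with no turn between ages. The 18 translocon and N-glycosylation genes, which bring chains into the ER, had medians of -0.04, 0.03, -0.15 and -0.13. At 30 weeks 14 of them had a lower mean in each line. Of these, 6 (KO) and 5 (A537T) were lower without overlap, against 8.41 and 9.4% of all genes, and 0 were higher without overlap. At an unadjusted p under 0.05 (limma) 1 and 2 were lower, against 5.41 and 6.28% of all genes.

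The genes with the smallest p in these lists were Edem3 (0.71 ± 0.17), Pdia4 (1.01 ± 0.25) and Trib3 (1.21 ± 0.30) in KO at 10 weeks (limma, adjusted p = 0.183). In A537T at 10 weeks they were Manf (0.82 ± 0.16), Hsp90aa1 (0.62 ± 0.14) and the ubiquitin ligase Syvn1 (1.64 ± 0.37; limma, adjusted p = 0.746). At 30 weeks Dnajc10, an ER disulfide reductase, was at -0.66 ± 0.13 in KO (limma, adjusted p = 0.307) and -0.85 ± 0.18 in A537T (limma, adjusted p = 0.221). Pdia6 (-0.50 ± 0.10) and Derl3 (-0.58 ± 0.15) followed in KO, and Pdia3 (-0.43 ± 0.10) and Atf6 (-0.61 ± 0.15) in A537T.

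Of the other compartments, the cytosolic list had medians with the signs of the ER chaperones, and the mitochondrial list did not. The 12 cytosolic chaperones had medians at 10 weeks of 0.12 (KO) and 0.48 (A537T), and at 30 weeks of -0.30 and -0.07. At 10 weeks 1 of 12 was higher without overlap in KO, against 11.7% of all genes, and 5 of 12 in A537T, against 5.58%, where all 12 had a higher mean. At 30 weeks 11 of 12 had a lower mean in KO, 2 of them without overlap, against 8.41% of all genes. There 4 of 12 were lower at an unadjusted p under 0.05 (limma), against 5.41% of all genes. In A537T at 30 weeks 7 of 12 had a lower mean, with 0 lower without overlap. The 6 mitochondrial chaperones had medians of -0.31 and -0.17 at 10 weeks and 0.01 in both lines at 30 weeks. The higher means at 10 weeks therefore did not extend to the mitochondrial chaperones, and whether the lists differ from each other was not tested.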

How the data were processed

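RNA sequencing of 18 libraries from ventral and lateral prostate lobes was used. The authors trimmed reads with Trim Galore 0.4.1 and cutadapt 1.18, aligned them with STAR 2.7.3a to GRCm38.p6 with nuclear mitochondrial sequences masked, quantified genes with Salmon on the stranded setting and divided counts by DESeq2 1.26 size factors within each table of 6 libraries. These normalised counts are the signal values the authors deposited (55469 genes). The deposited comparison files hold the authors' own fold changes and s-values and were not used. Table columns carry no genotype: libraries found in both tables of the same age were taken as WT, and the others as the mutant of their table, which gives a group but no replicate number. Labels do not say whether libraries of a group come from separate litters, so p-values measure the spread between these libraries.

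Whole reads were recovered from the normalised counts (at least 99.9% of values within 0.02 of a whole multiple). In 4 columns the size factor is too near 1 for an automatic test. A WT library's reads differ between its 2 tables for 53.6 to 64.1% of genes, and by at most 4.16% for a member, and RPM were taken from the KO tables. Genes with a mean of at least 10 were tested on log2(normalised count + 1) with limma 3.58.1 (R 4.3.3; mean trend, Benjamini-Hochberg over all genes, threshold 0.05), each mutant group against WT in its own table. Alternatives were DESeq2 1.42.0 and edgeR 4.0.16 on recovered reads, pseudocount 8, minimum means of 1 and 100, other scalings, no mean trend, tissue covariates and leaving out each library. Differences between ages and relations used exact permutation tests, adjusted over all genes rather than over the 10 members. With 3 against 3 libraries such a test of a single gene cannot go below 0.1. Fits were tested on simulated data. Permutations were computed with scipy 1.17.1 and numpy 2.4.6 in Python 3.11.15, tables handled with pandas 2.3.3 and figures drawn with matplotlib 3.10.9.

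The members and all lists were chosen with earlier results of these data known. Genes named are the members, Elac2, the 3 most abundant genes of the seminal vesicle and the ventral and lateral lobe lists, Tgm4 and 9530053A07Rik, the 5 genes most correlated with the members, and the 3 genes with the smallest p of the other lists in each comparison. Sequences and motifs are from RefSeq, GRCm38.p6. Of the gene IDs, 54450 matched GENCODE exactly and 55107 without version.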

Additional observations from a re-analysis of the deposited data

Results flagged for a closer look

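The change of 9 of 10 ER chaperones against WT differed between ages in each line, by an exact permutation test that exchanged genotypes among libraries of an age, at an unadjusted p under 0.05. That test is exact for no genotype difference at either age, and not for an equal change at both. Of all genes, 4.01% of 14295 in KO and 5.23% of 14292 in A537T were lower at 30 weeks at this threshold. In KO the change at 30 weeks minus that at 10 weeks, on the log2 scale, was -1.92 for Creld2, -1.39 for Hsp90b1, -1.001 for Sdf2l1, -0.93 for Hyou1, -0.82 for Hspa5, -0.69 for Calr, -0.66 for Dnajc3, -0.39 for Dnajb11 and -0.35 for Canx. In A537T it was -2.31 for Creld2, -1.47 for Sdf2l1, -1.45 for Hsp90b1, -1.21 for Hyou1, -1.10 for Hspa5, -1.03 for Dnajc3, -0.91 for Calr, -0.52 for Canx and -0.45 for Dnajb11. Both lines share their WT libraries, and none of these passed when adjusted over all genes. Secretory and muscle RNA also differed between the ages: WT at 10 weeks held 3.89 to 12.6% skeletal muscle reads and WT at 30 weeks at most 0.0712%, and seminal vesicle RNA, up to 4.64% in WT at 10 weeks, was at most 0.000854% in WT at 30 weeks. The part of this tissue content in the differences between ages was not tested.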

How the results depend on the processing

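Directions of all 10 members held at 10 weeks in both lines under every alternative run. The number of members called, 0 with limma (and with edgeR), was 2, 4, 2 and 2 with DESeq2 in KO and A537T at 10 weeks and KO and A537T at 30 weeks. DESeq2 called 1.03, 0.207, 0.557 and 0.853% of all genes in the same directions. Leaving out each library in turn gave 0 to 2, 0 to 1, 0 to 2 and 0 to 6 members. The highest counts came without 10AF, 10AF, 5AF and 8AF. There limma called 2886 of 15044, 50 of 15029, 944 of 14732 and 1224 of 14801 genes. The median log2 fold change of 0.47 in KO at 10 weeks was 0.69 when scaled to the same total, 0.68 on totals outside seminal vesicle and muscle genes, 0.68 after quantile normalization, 0.29 with the seminal vesicle share or the anterior and dorsal lobe share as a covariate and 0.33 to 0.55 when a library was left out. In A537T at 10 weeks it was 0.55 to 0.75 when a library was left out. In KO at 30 weeks it was -0.31 on totals outside these genes, -0.24 after quantile normalization, -0.32 with the seminal vesicle covariate and -0.43 to -0.29 when a library was left out (highest without 2AF). In A537T at 30 weeks it was -0.25 with the seminal vesicle covariate, -0.18 with 8AF alone and -0.55 to -0.37 when a library was left out.

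Signs reversed for Dnajb9 in KO at 30 weeks (-0.31 with the seminal vesicle covariate, -0.42 with 5AF alone, and -0.10 to 0.40 when a library was left out) and in A537T at 30 weeks (-0.0328 with that covariate and -0.0660 with 8AF alone), for Dnajb11 in KO with 5AF alone (0.0225) and for Hspa5 in A537T with 8AF alone (0.0359). With RPM outside secretory and muscle genes, relations near 0 changed sign for Dnajb11 and Dnajc3 to the anterior and dorsal lobe share (-0.0524 and -0.0707), Dnajc3 among libraries with at least 1% (-0.0847) and Hsp90b1 within groups (-0.000891) to the seminal vesicle share, and Hspa5, Hyou1 and Dnajb11 to the ventral and lateral lobe share (0.0396, 0.0281 and 0.0439). Members whose change differed between ages numbered 9 in each line, against 4.01% (KO) and 5.23% (A537T) of all genes lower at 30 weeks. The number was 7 to 9 (KO) and 9 (A537T) when a library was left out, and 8 on totals outside seminal vesicle and muscle genes. No share over all genes was computed for these settings. By the limma contrast the number was 0. Where a single mutant library was left, its spread was taken to be that of WT. The cause was not tested, apart from the smaller number of libraries where some were left out. No paired analysis was possible because the table columns carry no replicate numbers. There were 3 libraries per group, and seminal vesicle, muscle and lobe content differed between and within groups. With all libraries, limma called 0 members in every comparison after adjustment over all genes. This held also where the interval excluded 0, as for Creld2 at 10 weeks, so the intervals do not mark which changes could be called.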
